A study of Homo sapiens with 14 samples.

Results

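Heat shock proteins and chaperones were taken from the RNA-seq count tables of CHP-134 cells by gene symbol: the HSP90, HSPA, HSPB, HSPD, HSPE and HSPH genes, the J proteins of the DNAJA, DNAJB and DNAJC classes, the cytosolic chaperonin genes (TCP1 and CCT) and the heat shock factors HSF1 and HSF2. The table of the OmoMYC experiment lists 84 such entries under 80 symbols among 17810 genes, and 69 of them passed the filter on low counts. The table of the dTAG47 experiment lists 84 among 19143 genes, and 75 passed. Membership follows from the symbols alone, but the genes, families and lists were chosen with earlier results of these data known.

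CHP-134 cells are an established neuroblastoma line of human origin with amplified MYCN. In the first experiment, an EGFP line and an OmoMYC line, each engineered separately from CHP-134 with a Tet-inducible lentiviral vector and selected with G418, were both given 1 µg/ml doxycycline for 3 days, with 3 libraries each. OmoMYC is a mutated MYC dimerization domain used as a genetic inhibitor of MYC proteins, and the EGFP cells carry the same induction system, so differences between separately made lines and effects of OmoMYC cannot be told apart. In the second experiment, parental CHP-134 cells, which carry no degradation tag, received 500 nM dTAG47, the small molecule that recruits tagged proteins for degradation, or DMSO for 18 h, with 4 libraries each. This comparison asks what dTAG47 does when it has no tagged target.

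Chaperones bind unfolded or partly folded proteins and release them in cycles driven by ATP. HSP70 proteins work with J proteins, which deliver clients and start ATP hydrolysis, and with HSP110 proteins, which exchange the nucleotide. HSP90 takes over late folding clients such as kinases and receptors, while chaperonins enclose a client in a barrel: HSPD1 with its lid HSPE1 in mitochondria, and the CCT ring, which folds actin and tubulin, in the cytosol. The heat shock factor HSF1 drives the stress-inducible genes of these families through arrays of short heat shock units, and the unfolded protein response drives those of the endoplasmic reticulum (ER).

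Stretches from promoters of 6 genes are shown because they hold, or lack, the sequence elements known for these pathways. They come from RefSeq on GRCh38.p14, 5′ to 3′ on the strand of the gene, and capitals mark the element. The first is the whole interval between the oppositely directed starts of HSPD1 and HSPE1, at chr2:197500275-197500378, with the E-box CACGTG, the motif bound by MYC and related factors. The next 2 hold an E-box before HSPA9 (chr5:138575402-138575481) and DNAJC12 (chr10:67838189-67838268). HSPA5 (chr9:125241344-125241423) holds an ER stress element, HSPA8 (chr11:123062137-123062216) holds 3 heat shock units, and DNAJB2 (chr2:219279286-219279365) has none of the 3 motifs in this stretch. The E-boxes shown all lie before genes called lower with OmoMYC, and DNAJB2 was called higher. Of the tested E-box genes not shown, HSP90B1, HSF2 and DNAJC8 were lower. DNAJC16, with a site 24 bases before its start, was higher, and DNAJB9, with sites at 68 and 44 bases, was not called.
HSPD1 to HSPE1 interval: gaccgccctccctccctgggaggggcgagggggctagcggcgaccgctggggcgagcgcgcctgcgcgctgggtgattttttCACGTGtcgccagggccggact
HSPA9: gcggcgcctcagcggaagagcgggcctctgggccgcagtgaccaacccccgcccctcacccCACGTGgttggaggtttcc
DNAJC12: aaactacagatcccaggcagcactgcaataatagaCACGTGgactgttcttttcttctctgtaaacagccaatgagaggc
HSPA5: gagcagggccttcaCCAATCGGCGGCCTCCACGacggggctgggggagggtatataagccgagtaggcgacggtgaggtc
HSPA8: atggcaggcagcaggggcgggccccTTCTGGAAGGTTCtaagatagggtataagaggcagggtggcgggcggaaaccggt
DNAJB2: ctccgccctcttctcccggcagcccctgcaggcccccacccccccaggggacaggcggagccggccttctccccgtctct

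The motifs were searched in the 250 bases before each start. Of the 35116 promoters in the RefSeq table, 74 belonged to chaperone genes. CACGTG, which reads the same on both strands, was found in 6.34% of all promoters and in 10 of the 74 (13.5%): DNAJB9, DNAJC8, DNAJC12, DNAJC16, HSF2, HSP90B1, HSPA9, HSPD1, HSPE1 and HSPE1-MOB4. The last 3 share 1 site, since they start from the interval shown above. The share over all promoters includes genes that were not tested here. Among all genes tested with OmoMYC, 916 held CACGTG and 9329 did not, and among chaperone genes tested it was 9 and 53. The 3 heat shock units (GAA, any 2 bases, TTC, any 2 bases, GAA), searched on both strands, was found in 0.441% of all promoters and in those of DNAJB6, HSPA6 and HSPA8 (4.05%). The ER stress element (CCAAT, any 9 bases, CCACG), searched on both strands, was found in 0.074% of all promoters and in those of HSPA5 and HSP90B1 (2.7%). A match describes the letters only.

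The libraries hold 28060817 to 38358128 counts in the OmoMYC experiment and 40861430 to 53451641 in the parental one. CPM is a gene's count for every 1000000 counts of its library after TMM scaling, and FDR is the adjusted p-value of edgeR's quasi-likelihood test. Of 9 adrenergic neuroblastoma markers 7 reached 1 CPM in both experiments, with TH and DBH below it. Their summed level was 3725 to 4372 CPM in EGFP and 3562 to 3717 CPM in OmoMYC libraries. Of 6 mesenchymal markers 5 reached 1 CPM, with a sum of 364 to 377 CPM in EGFP and 279.9 to 307 CPM in OmoMYC libraries. The part of these markers in the results was not tested. RNA came from bulk cultures, in which fewer cells of a kind and less RNA per cell cannot be told apart.

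The EGFP libraries differed from each other. A chi-square per degree of freedom between replicates, which is 1 for sampling noise, ran from 8.3 to 44.3 for EGFP pairs and from 2.86 to 8.94 for OmoMYC pairs. In the parental experiment it ran from 2.68 to 11.7 for DMSO pairs. For dTAG47 pairs it ran from 2.7 to 23.3, and replicate 2 was at 15.3 against replicate 3 and 23.3 against replicate 4. Chaperone genes took 2.12%, 1.95% and 1.90% of all counts in EGFP replicates 1, 2 and 3 and 1.74%, 1.71% and 1.67% in the OmoMYC replicates. Of the 27 chaperone genes called lower with OmoMYC, EGFP replicate 1 was the highest EGFP library for 26 and EGFP replicate 3 the lowest for 24. Among the OmoMYC libraries, replicate 3 was likewise the lowest for 24 of these 27 genes and the highest for 0. Without EGFP replicate 1, 30 were called lower, among them all 27 (27.8% of all genes were lower in that fit).

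Several well-known members were nearly absent from the table of the OmoMYC experiment, in both groups. HSF1, at 3229 to 4386 counts in every parental library, is listed there under a pair of identifiers with at most 3 counts in any library. HSPA1A is listed at 0 in all 6 libraries, and the entry of HSPA1B that has a position on chromosome 6 (GRCh37 31795515 to 31798031) is also at 0, against 74.0 ± 5.33 CPM (SD, n = 4) in the DMSO libraries. HSPA12A reached 1 count in 1 library, against 73.9 ± 0.645 CPM in DMSO. DNAJC7 was at 2.27 ± 0.525 CPM in EGFP (SD, n = 3), 1.07% of its level in DMSO. Both tables were aligned to hg19 by the authors, but the GRCh37 annotation lacked 850 identifiers listed for the OmoMYC experiment and 527 listed for the parental one. HSPA1A and HSPA1B are near copies: 1666 of the 2301 windows of 100 bases in the HSPA1A transcript (72.4%) occur exactly in HSPA1B. The cause of these low counts was not tested, and HSF1, HSPA1A and the HSPA1B entry with a position are therefore described from the parental cells alone.

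**Figure D1:**
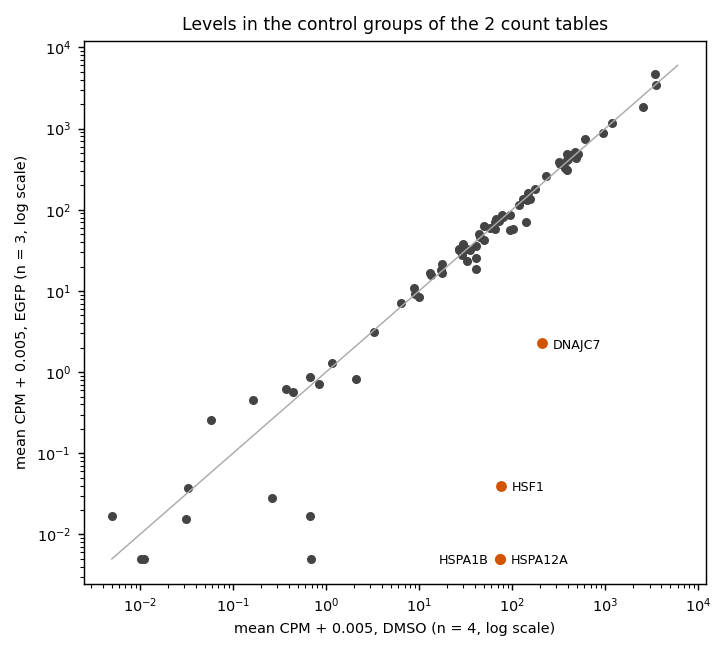
Mean level of each chaperone gene in the control groups of the experiments, CPM + 0.005 on log axes, with DMSO (n = 4) on the x axis and EGFP (n = 3) on the y axis. Each point is 1 gene identifier, the line marks equal levels, and HSF1, HSPA1B, HSPA12A and DNAJC7 (orange) lie far under it, with EGFP means of 0.0349, 0, 0 and 2.27 CPM.

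Most subunits of the cytosolic chaperonin, both genes of the mitochondrial chaperonin and all 3 HSP90 genes measured were lower with OmoMYC, while HSPA8, the main constitutive HSP70, did not pass the test. Several J proteins of vesicles and of the ER, with HSPA5 and HSPB1, rose. Of all 40 J proteins tested, 10 were higher and 10 were lower (25% each, against 27.3% and 25.7% of all genes). The calls of HSPA5, HSPB1, DNAJB11 and DNAJC16 were lost in 1 or more fits that leave out 1 library. Those of DNAJC5, DNAJC6, DNAJB12 and DNAJC18 held in all of these fits. Of the 69 chaperone genes tested, 27 were lower (39.1%, against 25.7% of the 13803 genes tested) and 15 were higher (21.7%, against 27.3% of all genes), at an FDR below 0.05. The groups did not overlap for 49 of the 69 (62.3% of all genes did not overlap). The median log2 fold change was -0.10, beside 0.01 over all genes. Leaving out 1 library in turn gave 23 to 30 lower and 10 to 16 higher chaperone genes, and none of the 42 called genes changed sign. Over all genes, those fits called 20.4% to 29.9% lower and 19.4% to 29% higher.

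**Figure D2:**
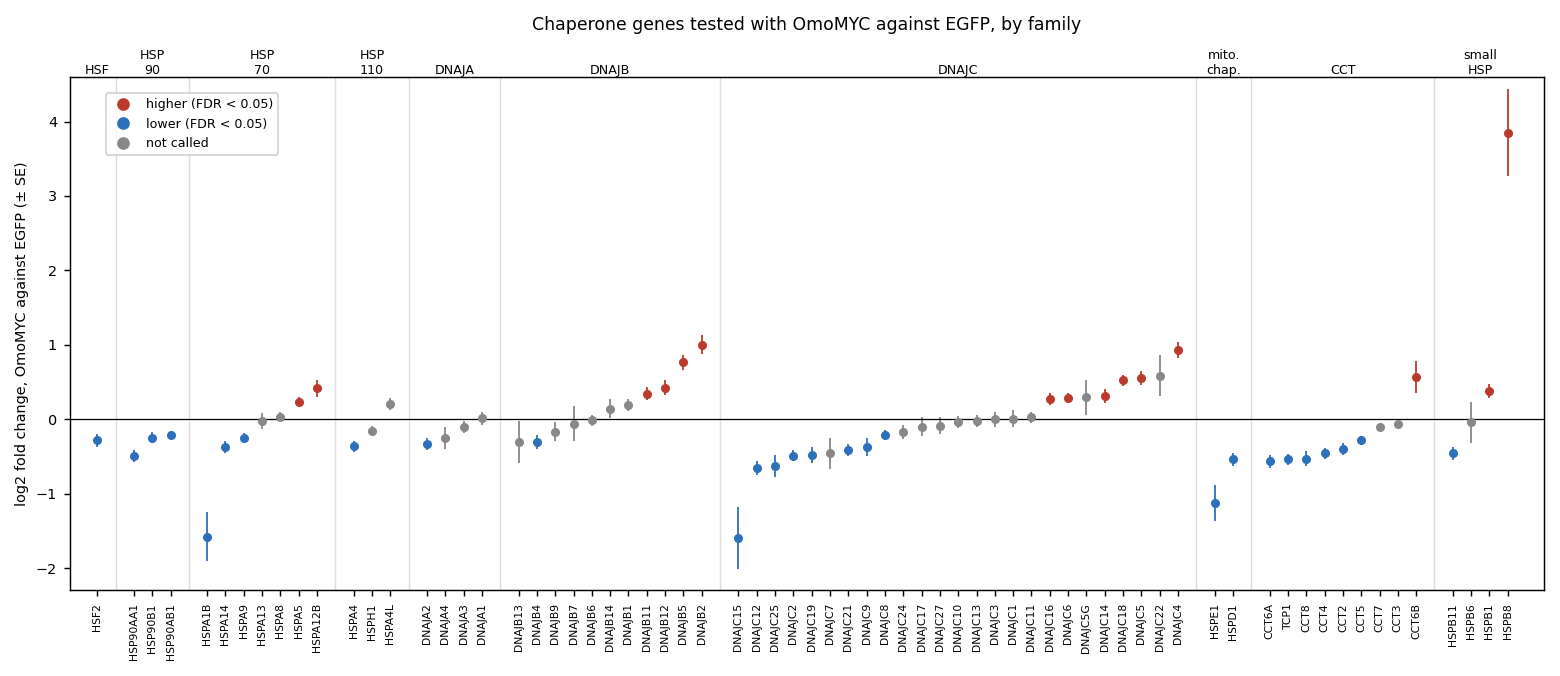
Log2 fold change of OmoMYC against EGFP (y axis, bars are the SE of the edgeR fit) for the 69 chaperone genes tested, grouped by family along the x axis. Red and blue mark genes higher and lower at an FDR below 0.05 and grey those not called. All HSP90 and mitochondrial chaperonin genes lie below 0, and HSPB8 at 3.85 rests on 0 to 2 counts per EGFP library.

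In the EGFP libraries, the cytosolic HSP90 genes were the most abundant members per transcript length. HSP90AB1, the constitutive cytosolic form, stood at 1866 CPM per kilobase, followed by HSP90AA1, the inducible form, at 1073, HSPA8 at 812, HSPD1 at 517 and CCT3 at 380.2. HSP90AA1 (chromosome 14, GRCh37 102547079 to 102606036) was at 3872, 3362 and 3156 CPM in EGFP and 2509, 2504 and 2344 CPM in OmoMYC libraries. Every OmoMYC library was below every EGFP library, and HSP90AA1 fell by 0.50 on the log2 scale (SE 0.08, FDR 0.000448). HSP90AB1 was at 4982, 4622 and 4699 CPM in EGFP and 4253, 4075 and 4035 CPM in OmoMYC libraries, a log2 fold change of -0.21 (SE 0.06, FDR 0.0107). HSP90B1, the HSP90 of the ER, was at 528, 474 and 455 against 411, 417 and 401 CPM, a log2 fold change of -0.25 (SE 0.07, FDR 0.0116). The groups did not overlap for either gene, and all 3 HSP90 calls held with any 1 library left out. The CPM of HSP90AA1 was 77.7%, 72.7% and 67.2% of that of HSP90AB1 in the EGFP libraries and 59.0%, 61.4% and 58.1% in the OmoMYC libraries.

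HSPE1, the lid of the mitochondrial chaperonin, showed the largest fall among called chaperone genes whose mean reached 1 CPM. It is on chromosome 2 (GRCh37 198364864 to 198368173), next to HSPD1, whose annotated span (198351308 to 198381461, opposite strand) overlaps it. Whether counting used strand is not given in the sources used here, so reads of HSPE1 and HSPD1 may not be fully separated. HSPE1 was at 106, 63.6 and 45.3 CPM in EGFP and 33.9, 35.4 and 29.4 CPM in OmoMYC libraries. The EGFP libraries spread widely but stayed above the OmoMYC libraries, which were close together. The log2 fold change of HSPE1 was -1.12 (SE 0.24, FDR 0.00301), and it was -0.74 without EGFP replicate 1 and -1.40 without EGFP replicate 3. HSPD1 was at 1340.5, 1128 and 1017 CPM in EGFP and 809, 814 and 772 CPM in OmoMYC libraries, so it fell by 0.54 on the log2 scale (SE 0.09, FDR 0.000714) with no overlap. The CPM of HSPE1 was 7.91%, 5.64% and 4.45% of that of HSPD1 in EGFP, 4.19%, 4.35% and 3.81% in OmoMYC and 11.1% to 12.3% in the parental libraries.

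The subunits of the cytosolic chaperonin ring did not move alike. Of the 8 subunits, 6 were lower and none was higher, against 25.7% and 27.3% of all genes. Their median log2 fold change was -0.43. TCP1, also called CCT1, was at 282, 255 and 248 CPM in EGFP and 185, 189 and 168 CPM in OmoMYC libraries, and fell by 0.54 on the log2 scale (SE 0.08, FDR 0.000226). CCT6A was at 573, 506 and 451 CPM in EGFP and 344, 359 and 331 CPM in OmoMYC libraries, and fell by 0.56 (SE 0.09, FDR 0.000374). For both genes every OmoMYC library was below every EGFP library. CCT8 (-0.53), CCT4 (-0.46), CCT2 (-0.40) and CCT5 (-0.29) fell too, and all 6 calls held with any 1 library left out. CCT3, the most abundant subunit per transcript length, was at 762, 752 and 741 CPM in EGFP and 745, 715 and 705 CPM in OmoMYC libraries (log2 fold change -0.06, SE 0.06, FDR 0.4). CCT3 and TCP1 are parts of the same ring, yet the CPM of CCT3 was 270%, 295% and 298% of that of TCP1 in EGFP libraries and 403%, 379% and 420% in OmoMYC libraries. CCT7 had a log2 fold change of -0.10 (FDR 0.144), and it was called lower only without EGFP replicate 1.

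CCT6B, a paralogue of CCT6A known from testis, was at 0.820, 0.967 and 0.792 CPM in EGFP and 1.40, 1.32 and 1.09 CPM in OmoMYC libraries, so its levels lay near 1 CPM in both groups. It was called higher with a log2 fold change of 0.56 (SE 0.22, FDR 0.0493), but it was called in only 2 of the 13 alternative settings. Its FDR ran from 0.0549 to 0.155 when 1 library was left out.

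**Figure D3:**
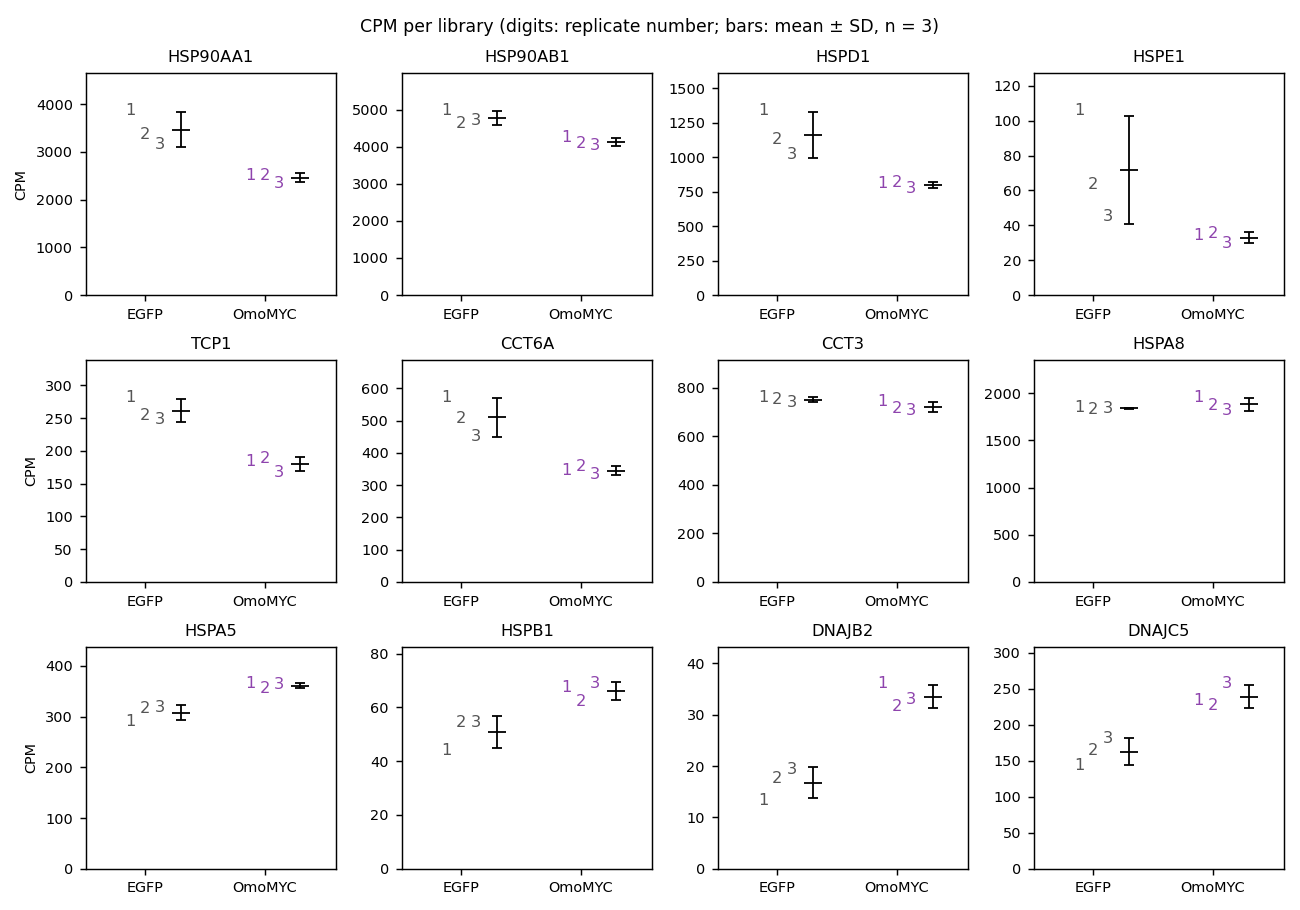
CPM of 12 chaperone genes in each EGFP and OmoMYC library. Digits are the replicate numbers, bars beside them the mean ± SD (n = 3), and each y axis starts at 0. HSP90AA1, HSPD1, HSPE1, TCP1 and CCT6A are lower in every OmoMYC library, CCT3 and HSPA8 overlap between groups, and HSPA5, HSPB1, DNAJB2 and DNAJC5 are higher in every OmoMYC library.

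Of the 7 HSP70 entries tested, 3 were lower (42.9%, against 25.7% of all genes) and 2 were higher (28.6%, against 27.3%). The lower entries include an HSPA1B entry under 1 CPM, given below. HSPA8, which binds nascent chains and uncoats clathrin vesicles, was at 1843, 1831 and 1841 CPM in EGFP and 1958, 1869.7 and 1819 CPM in OmoMYC libraries, with a log2 fold change of 0.03 (SE 0.06, FDR 0.63), and was called in 0 of the 13 settings. HSPA9, the mitochondrial HSP70 that pulls imported proteins into the matrix, was at 954, 860.0 and 852 CPM in EGFP and 761, 764 and 718 CPM in OmoMYC libraries and fell by 0.25 on the log2 scale (SE 0.07, FDR 0.00868). HSPA14, which acts at the ribosome with DNAJC2, fell by 0.37 (FDR 0.0034), and DNAJC2 itself fell by 0.49 (FDR 0.000432).

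HSPA5, the ER HSP70 also called BiP, moved the other way. It was at 290.1, 315 and 318 CPM in EGFP and 364, 356 and 363 CPM in OmoMYC libraries, with no overlap, and rose by 0.23 on the log2 scale (SE 0.06, FDR 0.0101). Leaving out any 1 OmoMYC library ended this call, with the FDR between 0.0092 and 0.0696 over all libraries left out. HSPA12B, an atypical HSP70, rose by 0.42 (FDR 0.0125), and its call was lost in 3 of the fits that leave out 1 library (EGFP replicate 2, and replicate 1 or replicate 3 of OmoMYC, FDR 0.00735 to 0.0734 over libraries left out). So the count of higher HSP70 genes was 2 of 7 with all libraries and 0 of 7 without OmoMYC replicate 1. In the latter fit 22.1% of all genes were higher. HSPA13 was at a log2 fold change of -0.02 (FDR 0.87). A further entry under the symbol HSPA1B, without a position in the annotation, had 31, 21 and 29 counts in EGFP and 6, 17 and 7 counts in OmoMYC libraries, under 1 CPM, and was called lower (log2 fold change -1.58, FDR 0.00276). It is a near copy of other HSP70 entries, and its share of their reads is uncertain.

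Of the HSP110 genes, the nucleotide exchange factors of HSP70, only HSPA4 was called, with a fall of 0.37 (SE 0.08, FDR 0.00258). HSPH1, the stress-inducible one, was at 453, 421 and 413 CPM in EGFP and 390.3, 385 and 379 CPM in OmoMYC libraries. The HSPH1 groups did not overlap, but its log2 fold change of -0.16 (SE 0.06, FDR 0.0517) did not pass, and 6 of the 13 alternative settings called it lower. HSPA4L had a log2 fold change of 0.21 (FDR 0.0567), and 4 of 13 settings called it higher. The difference between HSPA4 and HSPA4L was not tested.

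HSF2, a heat shock factor active in development, was at 87.0, 75.7 and 69.1 CPM in EGFP and 64.5, 65.5 and 60.5 CPM in OmoMYC libraries. It fell by 0.28 on the log2 scale (SE 0.09, FDR 0.0227) with no overlap. Its call was lost without OmoMYC replicate 1 or without OmoMYC replicate 3, with the FDR between 0.00106 and 0.0648 over libraries left out.

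The J proteins, 40 of them tested, had 10 higher and 10 lower (25.0% each, against 27.3% and 25.7% of all genes). Their median log2 fold change was -0.03. The largest rise was that of DNAJB2, a ubiquitin-binding J protein enriched in neurons (chromosome 2, GRCh37 220144064 to 220151620). It was at 13.4, 17.5 and 19.4 CPM in EGFP and 36.0, 31.5 and 32.9 CPM in OmoMYC libraries, a log2 fold change of 1.00 (SE 0.13, FDR 0.000113). DNAJC4 was at 9.91, 11.8 and 11.0 CPM in EGFP and 19.5, 20.2 and 22.5 CPM in OmoMYC libraries, a log2 fold change of 0.93 (SE 0.10, FDR 4.72e-05). For both genes the lowest OmoMYC library was well above the highest EGFP library.

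DNAJB5 was at 27.6, 36.7 and 35.2 CPM in EGFP and 57.0, 53.9 and 57.9 CPM in OmoMYC libraries, with a log2 fold change of 0.76 (SE 0.10, FDR 0.000201). DNAJC5, the cysteine string protein that keeps synaptic vesicle proteins folded, was at 143, 164 and 181 CPM in EGFP and 234, 227 and 257 CPM in OmoMYC libraries, with a log2 fold change of 0.55 (SE 0.09, FDR 0.000612). Neither gene's groups overlapped, and both calls held with any 1 library left out. DNAJC6, the neuronal auxilin that helps to strip clathrin coats, rose by 0.29 (FDR 0.00526). Of the 4 vesicle genes tested, these DNAJC5 and DNAJC6 rises were the only calls, while 27.3% of all genes were higher. DNAJC13 was at -0.03 and DNAJC5G at 0.29 (FDR 0.317).

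Of the 12 ER chaperones, 5 were higher and 1 was lower, against 27.3% and 25.7% of all genes. Their median log2 fold change was 0.08, and it ran from -0.04 to 0.13 with 1 library left out. The ER rises were HSPA5 (above), its soluble partner DNAJB11 (0.34), and DNAJB12 (0.42), DNAJC18 (0.52) and DNAJC16 (0.27), J proteins anchored in the ER membrane. The fall was HSP90B1. The count of ER rises was 3 without EGFP replicate 2, where DNAJB11 and DNAJC16 were lost and 20.7% of all genes were higher. The call of DNAJC16 was lost in 4 of the 6 settings that leave out 1 library (FDR 0.00256 to 0.126). DNAJB9, a classic target of the unfolded protein response, was at 22.0, 18.4 and 15.9 CPM in EGFP and 16.7, 18.7 and 14.7 CPM in OmoMYC libraries, so the groups overlapped (log2 fold change -0.17, SE 0.13, FDR 0.299). DNAJC3, an ER inhibitor of the kinases that phosphorylate eIF2α, was at 46.1, 40.0 and 39.5 CPM against 44.9, 44.1 and 36.2 CPM, also overlapping (log2 fold change 0.00, SE 0.10, FDR 0.979).

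Among the J proteins that fell, DNAJC12, a cofactor of the aromatic amino acid hydroxylases, was at 68.7, 65.4 and 54.0 CPM in EGFP and 38.4, 42.5 and 38.3 CPM in OmoMYC libraries. DNAJC12 fell by 0.66 on the log2 scale (SE 0.10, FDR 0.000355) with no overlap. DNAJC25 was at 10.1, 7.99 and 7.23 CPM in EGFP and 4.67, 5.89 and 5.72 CPM in OmoMYC libraries, a log2 fold change of -0.63 (SE 0.15, FDR 0.00488), again with no overlap. DNAJC21, which takes part in ribosome assembly, fell by 0.41 (FDR 0.00227). DNAJC9, a histone chaperone, fell by 0.37 (FDR 0.0256) and DNAJC8, a splicing-associated J protein, by 0.21 (FDR 0.025), but both calls were lost without OmoMYC replicate 1 and without OmoMYC replicate 3, at an FDR of up to 0.0841 and 0.0855. Without OmoMYC replicate 1, 0 of the 3 nuclear J proteins tested was called (20.4% of all genes were lower and 22.1% higher).

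The cytosolic J proteins that pair with HSPA8 varied. DNAJA2 fell by 0.34 (FDR 0.00534). DNAJA1 was at 365, 315 and 293 CPM in EGFP and 327, 334 and 319 CPM in OmoMYC libraries, overlapping, with a log2 fold change of 0.01 (SE 0.08, FDR 0.926) whose sign turned with the scaling. DNAJB1, the stress-inducible partner, was at 53.3, 57.6 and 63.7 CPM in EGFP and 67.0, 64.8 and 66.8 CPM in OmoMYC libraries. The DNAJB1 groups did not overlap, but its log2 fold change of 0.19 (SE 0.08, FDR 0.074) did not pass, and 2 of 13 alternative settings called it higher. DNAJB4 fell by 0.31 (FDR 0.0199), a call lost without OmoMYC replicate 1 (FDR 0.00227 to 0.0546 over libraries left out).

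Of the 7 mitochondrial chaperones tested, 5 were lower and none was higher, against 25.7% and 27.3% of all genes. Their median log2 fold change was -0.48. HSPE1, HSPD1 and HSPA9 are described above. DNAJC19, part of the motor that imports proteins into the matrix, fell by 0.48 (FDR 0.00435), and its paralogue DNAJC15 fell by 1.59 (SE 0.41, FDR 0.00827) at 0.757, 0.430 and 0.482 CPM in EGFP and 0.273, 0.156 and 0.132 CPM in OmoMYC libraries. DNAJC15 was thus under 1 CPM in every library. DNAJA3 (-0.10, FDR 0.257) and DNAJC11 (0.02, FDR 0.789) were not called.

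The small heat shock proteins were few. HSPB1, which holds unfolded proteins and stabilizes actin, was at 44.1, 54.4 and 54.4 CPM in EGFP and 67.3, 62.2 and 68.7 CPM in OmoMYC libraries. HSPB1 rose by 0.37 on the log2 scale (SE 0.09, FDR 0.00693) with no overlap, and its FDR was 0.051 without OmoMYC replicate 3. HSPB8, a partner of BAG3 in selective autophagy, had 2, 0 and 1 counts in EGFP and 16, 18 and 19 counts in OmoMYC libraries. Since each EGFP library was at or under 3 counts, HSPB8 is given as at least 5.36-fold higher, with 3 counts per library as the floor. HSPB11 fell by 0.46 (FDR 0.00108). It carries the family's name but is known as a subunit of the ciliary transport machinery. HSPB6 was at 0.663, 0.716 and 0.758 CPM in EGFP and 0.512, 0.675 and 0.888 CPM in OmoMYC libraries (FDR 0.916).

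**Figure D4:**
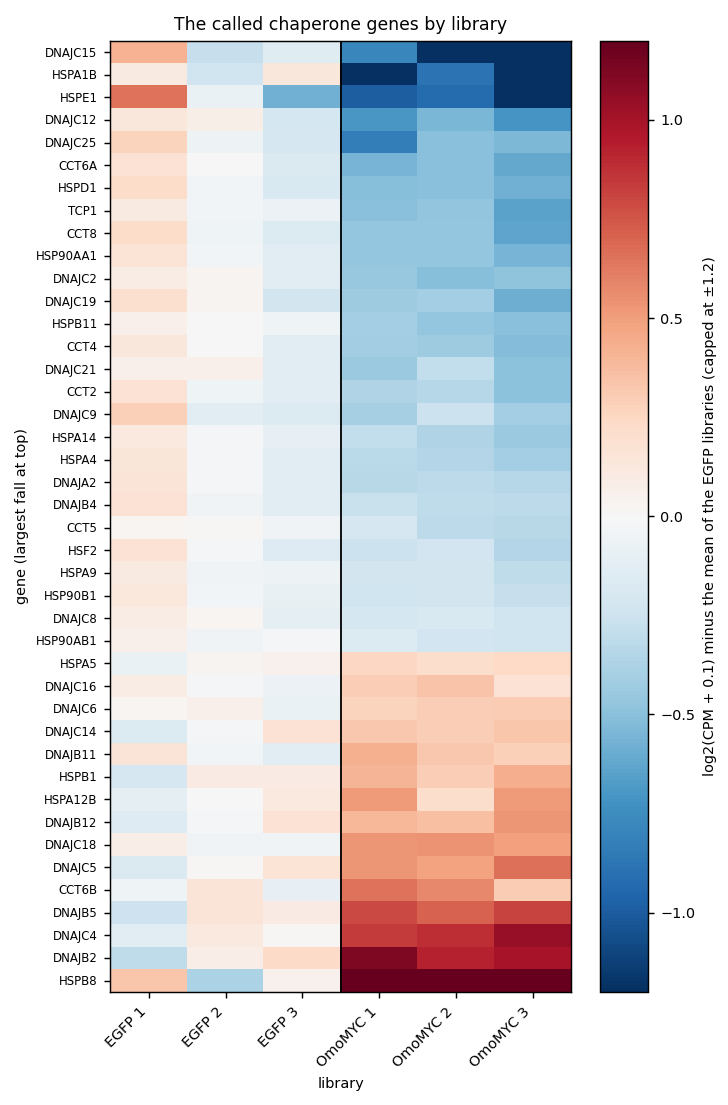
The 42 called entries in each library, as log2(CPM + 0.1) minus the mean of the EGFP libraries, with color capped at 1.2 in either direction and genes ordered by fold change. EGFP replicate 1 is the reddest EGFP column for 26 of the 27 genes that fell, and the HSPA1B row is the entry without a position.

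By role, the stress-inducible cytosolic genes and the constitutive core can be set side by side. Of 5 stress-inducible genes tested, HSP90AA1 and the HSPA1B entry without a position were lower, HSPB1 was higher, and HSPH1 and DNAJB1 were not called. Of 8 core genes (HSP90AB1, HSPA8, HSPA4, HSPA14, DNAJA1, DNAJA2, DNAJC2 and DNAJC7), 5 were lower and none was higher. Their median log2 fold change was -0.35. DNAJC7, at only 2.27 CPM in EGFP, was not called. Beside both groups, 25.7% of all genes were lower and 27.3% were higher. By promoter, of the 9 tested members with an E-box in the window, 7 were lower and 1 was higher, and of the 53 without one, 17 were lower and 13 were higher. Over all genes tested, 24.5% of the 916 with an E-box and 26.6% of the 9329 without one were lower, and 26.3% and 27.1% were higher. Among the 7, the calls of HSF2 and DNAJC8 were lost without OmoMYC replicate 1 and without OmoMYC replicate 3. The 1 higher gene, DNAJC16, also lost its call in some of the fits that leave out 1 library. HSPD1 and HSPE1 share their site, so these 9 are not independent.

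Other genes of the chaperone network were counted from fixed lists. Of 35 mitochondrial folding, import and protease genes, 14 were lower and 1 was higher, against 25.7% and 27.3% of all genes (median -0.18). The higher count was 0 without EGFP replicate 1 and 4 without EGFP replicate 3 (26.4% and 29% of all genes). The largest falls were those of OMA1, an inner membrane protease (-0.72, FDR 0.00084), and GRPEL2, a nucleotide exchange factor of HSPA9 (-0.70, FDR 0.0005), and the 1 rise was that of DNLZ, a helper of HSPA9 (0.78, FDR 0.029). Of 22 prefoldin, phosducin-like and tubulin cofactor entries, which serve the CCT ring, 10 were lower and 1 was higher, also against 25.7% and 27.3% of all genes (median -0.23). VBP1, a prefoldin subunit, was listed under a pair of identifiers (-1.38 and -1.04, FDR 0.0012 and 0.0049), and PDCL3 rose (0.28, FDR 0.012).

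Of 37 HSP70 and HSP90 co-chaperones, 10 were lower and 4 were higher, against 25.7% and 27.3% of all genes (median -0.04). PTGES3, also called p23, which closes the HSP90 cycle, fell by 0.81 (FDR 0.00018), and PPID, an HSP90-bound prolyl isomerase, fell by 0.70 (FDR 0.00028). FKBP8, a membrane-bound HSP90 partner, rose by 0.48 (FDR 0.0028), as did TSC1, known best as an mTOR regulator (0.44, FDR 0.00036). Of 49 ER folding and unfolded protein response genes, 12 were higher and 8 were lower, against 27.3% and 25.7% of all genes (median -0.02). The largest rises were those of PPP1R15A (1.13, FDR 2e-05) and TRIB3 (1.12, FDR 3.9e-05), stress-response genes that act on eIF2α dephosphorylation and on kinase signalling, and the largest falls those of the ER folding enzymes FKBP14 (-0.83, FDR 9.7e-05) and PDIA5 (-0.59, FDR 0.00013). Without OmoMYC replicate 3 the number of higher genes in this list was 5, and 19.4% of all genes were higher. Of 5 other genes named for heat shock, 3 were higher and none was lower, against 27.3% and 25.7% of all genes. The rises were those of HSF5 (1.11, FDR 0.019), HSF2BP (0.63, FDR 0.0026) and HSPG2 (0.57, FDR 0.0026). HSF5 was under 1 CPM in both groups, HSF2BP is known from meiotic recombination, and HSPG2 encodes perlecan, a basement membrane proteoglycan.

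In parental cells, no chaperone gene was called with dTAG47 by the fits to all libraries that carry no term for the replicates, while a fit with a factor for pairs of replicates, given further on, called 5 lower. With edgeR, 0 of 75 were called higher and 0 lower (0.117% and 0.0415% of the 14470 genes tested, 0.159% in all). DESeq2 also called 0 in either direction (0.338% and 0.115% of all genes), and so did limma-voom. At an unadjusted p below 0.05 there were 5 of 75 (6.67%, against 7.28% of all genes). The median size of the log2 fold change was 0.0447, against 0.0617 over all genes, and the median SE of the chaperone genes was 0.0507. The groups did not overlap for 1 of the 75, DNAJC27, against 3.34% of all genes.

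HSF1 and HSPA1B were well counted in these cells. HSF1 was at 69.8, 70.2, 81.2 and 81.9 CPM in DMSO and 76.4, 74.5, 80.8 and 84.7 CPM in dTAG47 libraries, with a log2 fold change of 0.06 (SE 0.06, FDR 0.76). HSPA1B was at 73.6, 66.7, 78.2 and 77.7 CPM in DMSO and 72.6, 65.5, 73.7 and 72.5 CPM in dTAG47 libraries, with a log2 fold change of -0.06 (SE 0.06, FDR 0.756). HSPA1A was at 1.32, 2.17, 0.976 and 1.09 CPM in DMSO and 1.15, 0.872, 0.995 and 1.93 CPM in dTAG47 libraries (log2 fold change -0.17, SE 0.27, FDR 0.851), and reads shared by these near copies may have been assigned to either. HSPA6, another inducible HSP70, was under 1 CPM, with means of 0.261 in DMSO and 0.284 in dTAG47 (log2 fold change 0.15, SE 0.33, FDR 0.898). The groups overlapped for each of these genes.

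HSPH1 was at 504, 505, 468 and 479 CPM in DMSO and 485, 467, 453 and 454 CPM in dTAG47 libraries (log2 fold change -0.07, SE 0.04, FDR 0.677). DNAJB1 was at 96.8, 100.1, 106 and 106 CPM in DMSO and 105, 93.8, 104 and 107 CPM in dTAG47 libraries (log2 fold change 0.01, SE 0.05, FDR 0.976). HSPB1 was at 40.3, 43.0, 47.2 and 46.2 CPM in DMSO and 43.6, 42.3, 46.1 and 48.8 CPM in dTAG47 libraries (log2 fold change 0.03, SE 0.06, FDR 0.871). For HSPH1, DNAJB1 and HSPB1 as well, the groups overlapped.

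The ER and HSP90 genes given by library in this paragraph had log2 fold changes between -0.05 and 0.01. Over the 12 ER chaperones they ran from -0.14 (DNAJB14) to 0.11 (DNAJB12, FDR 0.673), with DNAJC10, given further on, at -0.13. HSPA5 was at 379.5, 392, 389 and 395 CPM in DMSO and 399, 364, 382 and 399 CPM in dTAG47 libraries (log2 fold change -0.01, SE 0.04, FDR 0.938). HSP90AA1 was at 3632, 3675, 3432 and 3467 CPM in DMSO and 3643, 3409, 3318 and 3408 CPM in dTAG47 libraries (log2 fold change -0.04, SE 0.04, FDR 0.741). HSP90AB1 was at 3388, 3462, 3469 and 3486 CPM in DMSO and 3581, 3310.1, 3485 and 3566 CPM in dTAG47 libraries (log2 fold change 0.01, FDR 0.905). The groups overlapped for all 3. HSP90B1 was at 511, 532, 489 and 496 CPM in DMSO and 516, 513, 479 and 479.7 CPM in dTAG47 libraries (log2 fold change -0.03, FDR 0.828). DNAJB9 was at 42.1, 45.1, 39.7 and 36.2 CPM in DMSO and 42.0, 42.5, 38.1 and 35.5 CPM in dTAG47 libraries (log2 fold change -0.04, FDR 0.848). DNAJC3 was at 52.4, 52.7, 48.3 and 44.8 CPM in DMSO and 50.1, 50.7, 47.6 and 43.3 CPM in dTAG47 libraries (log2 fold change -0.05, FDR 0.815). These ER genes overlapped between groups as well.

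HSPD1, TCP1, CCT6A, HSPA8, HSPA9, DNAJA1 and HSF2 had log2 fold changes between -0.04 and 0.02. HSPD1 was at 1226, 1242, 1136 and 1153 CPM in DMSO and 1199, 1151, 1119.5 and 1143 CPM in dTAG47 libraries (FDR 0.747). TCP1 was at 236, 242, 231 and 228 CPM in DMSO and 241, 229.9, 226 and 235 CPM in dTAG47 libraries (FDR 0.962). CCT6A was at 483, 488, 459 and 459.8 CPM in DMSO and 485, 458, 452 and 462 CPM in dTAG47 libraries (FDR 0.83). The groups overlapped for all 3 chaperonin genes. HSPA8 was at 2454, 2568, 2534 and 2532 CPM in DMSO and 2711, 2433, 2499 and 2586 CPM in dTAG47 libraries (FDR 0.876). HSPA9 was at 943, 962, 917 and 932 CPM in DMSO and 979, 939, 927 and 949.9 CPM in dTAG47 libraries (FDR 0.9). The highest and the lowest HSPA8 values were both in dTAG47 libraries, and the HSPA9 values overlapped. DNAJA1 was at 375, 381, 361 and 368 CPM in DMSO and 384, 359, 367 and 371 CPM in dTAG47 libraries (FDR 0.981). HSF2 was at 67.6, 72.0, 64.8 and 63.8 CPM in DMSO and 68.6, 66.9, 65.6 and 63.1 CPM in dTAG47 libraries (FDR 0.899). Both overlapped.

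The 5 chaperone genes with the smallest p were all lower with dTAG47. HSPB6, a small heat shock protein, was at 0.605, 0.786, 1.00 and 0.951 CPM in DMSO and 0.541, 0.520, 0.657 and 0.348 CPM in dTAG47 libraries (log2 fold change -0.69, SE 0.23, unadjusted p 0.00912, FDR 0.672 by edgeR). HSPA4L was at 70.8, 68.4, 59.7 and 62.2 CPM in DMSO and 57.0, 63.2, 56.7 and 54.5 CPM in dTAG47 libraries (log2 fold change -0.17, SE 0.06, unadjusted p 0.0112, FDR 0.673 by edgeR). HSPB6 lay at about 1 CPM or less in all libraries, and 1 dTAG47 library of each gene lay inside the range of the DMSO libraries.

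DNAJC27, which also carries a GTPase domain, was at 5.70, 7.75, 6.15 and 6.07 CPM in DMSO and 5.41, 5.49, 5.55 and 5.16 CPM in dTAG47 libraries (log2 fold change -0.25, SE 0.09, unadjusted p 0.0188, FDR 0.673 by edgeR). DNAJC24, which takes part in making diphthamide on a translation factor, was at 17.6, 17.8, 16.1 and 16.8 CPM in DMSO and 15.4, 17.1, 14.7 and 13.2 CPM in dTAG47 libraries (log2 fold change -0.18, SE 0.07, unadjusted p 0.0294, FDR 0.673 by edgeR). DNAJB4 was at 36.6, 33.9, 30.7 and 30.8 CPM in DMSO and 27.8, 33.6, 28.6 and 27.0 CPM in dTAG47 libraries (log2 fold change -0.17, SE 0.07, unadjusted p 0.0318, FDR 0.673 by edgeR). DNAJC27 was lower in every dTAG47 library, and the other pair overlapped in 1 library each.

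A fit with a factor for replicates 1 and 2 against 3 and 4, a split known from an earlier analysis of these libraries, called 5 chaperone genes lower and 0 higher (2.90% of all genes were lower and 2.58% higher in that fit). These were HSPA4L (-0.17, FDR 0.00673), DNAJC10 (-0.13, FDR 0.00831), DNAJB4 (-0.17, FDR 0.0384), HSPE1 (-0.10, FDR 0.0392) and DNAJC24 (-0.18, FDR 0.0494). HSPE1 was at 151, 146, 139 and 128 CPM in DMSO and 136, 133, 128 and 127 CPM in dTAG47 libraries, and these groups overlapped. DNAJC10, an ER reductase that assists HSPA5, was at 156, 154, 138 and 133 CPM in DMSO and 139, 144, 127 and 120.1 CPM in dTAG47 libraries. In both genes replicates 1 and 2 were higher than replicates 3 and 4 of the same group.

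**Figure D5:**
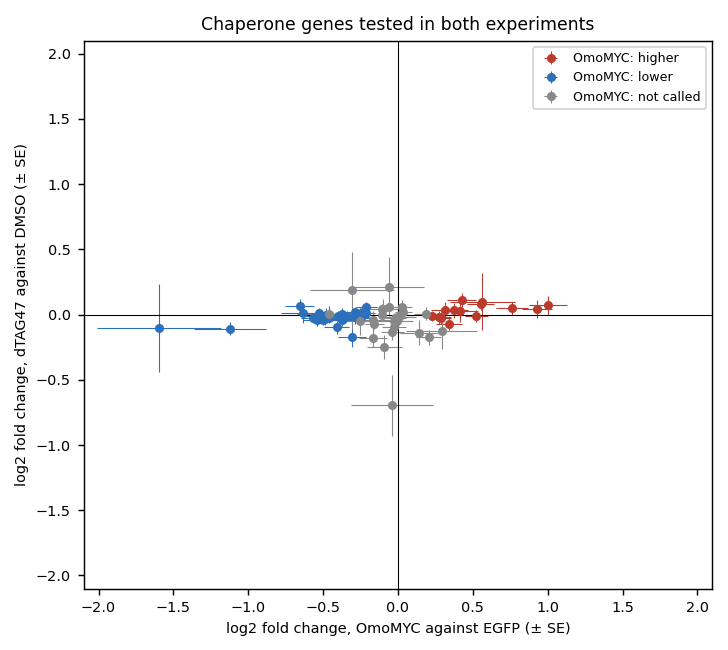
Log2 fold change ± SE (edgeR) of the chaperone genes tested in both experiments, with OmoMYC against EGFP on the x axis and dTAG47 against DMSO on the y axis at the same scale, colored by the OmoMYC call. HSPB8 was tested only with OmoMYC. The points spread along the x axis from -1.59 to 1.00 and along the y axis from -0.69 (HSPB6) to 0.21.

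Side by side, with OmoMYC first and dTAG47 second, the values of genes described above were HSPE1 at -1.12 and -0.11, HSPD1 at -0.54 and -0.04, CCT6A at -0.56 and -0.03, DNAJC12 at -0.66 and 0.06, DNAJB2 at 1.00 and 0.07 and DNAJC4 at 0.93 and 0.04, as log2 fold changes. The experiments differ in cells, serum, agent and time, and the difference between their changes was not tested. The levels of some genes differed between the controls themselves: HSPE1 in EGFP was at 50.8% and DNAJB9 at 46.0% of the mean CPM in DMSO, and DNAJB1 at 57.0%. The tables were counted separately, so these shares carry no test.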

How the data were processed

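RNA-seq counts of 14 CHP-134 libraries were used. The authors depleted rRNA, used STAR (hg19) for alignment and featureCounts for counting, per the labels and the study's methods. The deposited values are raw counts, without normalization. The annotation, strand setting and treatment of reads with several matches are not given in the sources used here. Each experiment was fitted on its own whole table in R 4.3.3: edgeR 4.0.16, filterByExpr at defaults, TMM scaling, the robust quasi-likelihood test and Benjamini-Hochberg adjustment over all genes tested, at an FDR of 0.05. DESeq2 1.42.0, the tool named by the authors, and limma-voom (limma 3.58.1) were alternatives. The fits were tested on simulated data. The study's methods call the libraries biological replicates of 1 line each, so p-values measure the spread between cultures of these lines. Libraries hold 28060817 to 53451641 counts, and precision for genes near 1 CPM is limited by counting.

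Log2 fold changes and SE come from the edgeR fit at its default prior count. A prior count of 2 was used only for the log2 CPM behind the correlations between libraries. A group with at most 3 counts in each library was taken as at the floor, and such bounds cover counting error only. Levels per kilobase use the length of the Ensembl canonical transcript. Coordinates of genes come from GENCODE lifted to GRCh37. Of the identifiers in the tables, 16960 of 17810 and 18616 of 19143 were found there. Values are given by library for 20 fixed genes and for the 10 called genes (5 up, 5 down) of largest change whose mean reached 1 CPM and whose groups did not overlap. For dTAG47 they are the 5 with the smallest p. Other genes with values by library, among them CCT3, HSPB8, HSPB6, DNAJC15 and DNAJC10, were added after their values were seen. The genes, families and lists were chosen with earlier results of these data known. With 3 against 3 libraries an exact permutation test cannot go below 0.1, and with 4 against 4 not below 0.0286, so single genes were tested only in the fits across all genes. HSPA1A, HSPA1B, HSPA8, HSP90AA1, HSPD1, HSPE1 and CCT genes have near copies or processed pseudogenes, so their counts are uncertain where reads fit several copies.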

Additional observations from a re-analysis of the deposited data

Results flagged for a closer look

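Among the dTAG47 libraries, HSPA1B in replicate 2 was at 65.5 CPM, apart from 72.5 to 73.7 CPM in the other 3, by a test of the gap between a sample and its nearest neighbour. This was the only such value among 50 groups of 4 libraries, 25 genes in DMSO and in dTAG47. Chance alone gives such a value in about 1 in 20 groups, so 1 among 50 is no more than chance gives. In DMSO replicate 2, HSPA1B was also the lowest of its group, at 66.7 CPM.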

How the results depend on the processing

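For OmoMYC, the 7 other tools, scalings, filters and designs gave 25 to 28 lower and 14 to 16 higher chaperone genes. Over all genes they gave 20.2% to 28% lower and 22% to 30.7% higher. Leaving out 1 library gave 23 to 30 lower and 10 to 16 higher (20.4% to 29.9% and 19.4% to 29% of all genes). The sign of DNAJA1 turned with DESeq2 (-0.01) and RLE factors (-0.01), and it ran from -0.09 to 0.09 with 1 library left out. With the replicate number as a block, 28 were lower and 16 higher. Whether the numbers pair the libraries is not settled here. Same-numbered deviations correlated at 0.076, -0.0697 and 0.293 in the first experiment and at 0.0093, 0.109, 0.101 and 0.159 in the second. Not every library correlated best with its own number. With the block, 2.11% of all genes were higher and 2.50% lower with dTAG47, against 0.117% and 0.0415% without it. For dTAG47, the replicate block called 4 lower (HSPA4L, DNAJB4, DNAJC10 and HSPE1, against 2.50% of all genes), the factor for replicates 1 and 2 against 3 and 4 called 5 lower, replicates 3 and 4 alone called 4 lower (3.24% of all genes) and replicates 1 and 2 alone called 0, the last pair chosen after seeing the data. The cause was not tested. Every other setting, each library left out included, called 0 chaperone genes. Without dTAG47 replicate 2, 0.358% of all genes were higher and 0.221% lower.

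Signs near 0 turned for dTAG47 as well. With 1 library left out, the log2 fold change ran from -0.04 to 0.01 for HSF2, -0.03 to 0.02 for HSPA5, -0.02 to 0.01 for TCP1, -0.09 to 0.01 for DNAJB9, -0.47 to 0.13 for HSPA1A, -0.01 to 0.07 for HSPB1, -0.01 to 0.04 for HSPA8 and -0.02 to 0.05 for DNAJB1. DNAJB1 was at -0.01 with library size only and at -0.01 in replicates 3 and 4 alone, where HSPA1A was at 0.50. Depth limits the genes under or near 1 CPM, among them HSPB6, HSPB8, CCT6B and DNAJC15.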
